A study of Rattus norvegicus with 82 samples.

Results

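The renin–angiotensin and endothelin systems were followed through 9 genes of the 17337 in the count table, all of which were present. They are *Agt* (angiotensinogen), *Ace* (angiotensin-converting enzyme), *Agtr1a* (an angiotensin II type 1 receptor), *Nr3c2* (the mineralocorticoid receptor), *Edn1* and *Edn3* (endothelin precursors), *Ece1* (an endothelin-converting enzyme), and *Ednra* and *Ednrb* (the endothelin A and B receptors). The genes were chosen by symbol. Of the 11954 genes with enough counts to be tested, 8 were among these 9. *Edn3* had 2 counts in 1 of 82 libraries, LV AOB-H replicate 5, and was not tested.

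Total RNA was sequenced from ventricular cardiomyocytes of 41 rats, F1 hybrids of Wistar Kyoto mothers and Lewis fathers, with 1 library from the right ventricle (RV) and 1 from the left ventricle (LV) of each animal. Pressure load came from a clip around the pulmonary artery (PAB) or the aorta (AOB) that did not constrict when placed and tightened as the animals grew, and controls had sham surgery. The compensated stage (H) was sampled 7 weeks after surgery, in Sham-H (7 animals), PAB-H (6) and AOB-H (6), all labelled 11 weeks old. The failing stage (F) was sampled 22 weeks after surgery in 6 PAB-F animals labelled 28 weeks old, and 26 weeks after surgery in 9 Sham-F and 7 AOB-F animals labelled 31 weeks old, so PAB-F and its sham group differ in age. Males were 3 of 7 in Sham-H, 4 of 6 in PAB-H, 2 of 6 in AOB-H, 4 of 9 in Sham-F, 4 of 6 in PAB-F and 4 of 7 in AOB-F.

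In the renin–angiotensin system, angiotensinogen is the precursor, and angiotensin-converting enzyme makes the last cut to angiotensin II, which acts on type 1 receptors of vessel wall, fibroblasts and cardiomyocytes. Angiotensin II drives the adrenal release of aldosterone, the ligand of the mineralocorticoid receptor. Endothelins are cut from their precursors by furin-like proteases and then by endothelin-converting enzyme. The A receptor of cardiomyocytes and smooth muscle couples to Gq and to growth and contraction, whereas the B receptor is best known from endothelial cells, where it clears endothelin and drives nitric oxide release. Drugs against each arm are used in heart failure or pulmonary hypertension.

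Depth was 6675287 to 19665439 counts per library, with a median of 13074486. The 9 ventricular cardiomyocyte markers took 4.59 to 14.2% of all counts, so the labelled cell type was present throughout. All 12 endothelial markers were detected in each group, at a summed 0.0914 to 0.751% of counts. The 10 fibroblast markers took 0.0165 to 0.314%, with 1 marker at 0 in every library of 5 groups, and the 9 macrophage markers took 0.00196 to 0.0583%. None of the 6 neutrophil markers was high enough to be tested. On the first principal component of all genes tested, which held 47% of the variance and had group medians of 53.4 to 68.6 in the F-stage LV groups and of -43.9 to -6.48 in the others, 5 libraries stood over 40 units from the median of their group. They were LV Sham-H replicates 4 and 5, LV PAB-H replicate 2, LV AOB-H replicate 6 and LV PAB-F replicate 5. Where leaving them out changed a call, or moved a value near or past the threshold by over 1.5 times, both values are given. In bulk samples, fewer cells of a type and less RNA per cell cannot be told apart.

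*Ace* and *Ece1* had levels that moved together across libraries, and *Ednra* moved the other way, so their proximal promoters are shown here. RefSeq (GRCr8) gave promoters for 6 of the 9 genes, and the 250 bases before the annotated start are printed on the strand of the gene, with letter matches in capitals. The letters searched on both strands were GGGCGG, which the factor Sp1 binds, TATAAA, the core promoter element of that name, AGATAA, bound by the cardiac factor Gata4 and its kin, and CCAAT, bound by the factor NF-Y. The *Ace* window lies at chr10:91409879-91410128 on the + strand, the *Ece1* window at chr5:155360781-155361030 on the + strand and the *Ednra* window at chr19:47137674-47137923 on the + strand.
Ace: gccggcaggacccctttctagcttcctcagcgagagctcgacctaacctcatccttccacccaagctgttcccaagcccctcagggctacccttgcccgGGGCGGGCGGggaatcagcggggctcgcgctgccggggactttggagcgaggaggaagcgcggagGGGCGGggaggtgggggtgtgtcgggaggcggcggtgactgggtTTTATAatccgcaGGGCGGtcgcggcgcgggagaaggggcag
Ece1: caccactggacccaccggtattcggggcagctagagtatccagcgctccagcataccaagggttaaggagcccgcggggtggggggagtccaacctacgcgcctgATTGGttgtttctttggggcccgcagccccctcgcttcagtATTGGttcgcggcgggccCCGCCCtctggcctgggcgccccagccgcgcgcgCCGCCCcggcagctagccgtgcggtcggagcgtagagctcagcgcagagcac
Ednra: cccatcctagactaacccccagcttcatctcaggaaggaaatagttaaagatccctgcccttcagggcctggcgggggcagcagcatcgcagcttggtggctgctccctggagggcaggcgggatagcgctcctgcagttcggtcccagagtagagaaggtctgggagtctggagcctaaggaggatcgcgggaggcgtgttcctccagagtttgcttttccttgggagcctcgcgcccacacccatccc

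The *Ace* window held GGGCGG 4 times, of which the first pair overlap, and TATAAA once, read on the other strand. The *Ece1* window held GGGCGG 2 times and CCAAT 2 times, all on the other strand. The *Ednra* window held none of the 4 strings. GGGCGG occurred in 3 of the 6 windows of these genes and in 30.5% of all 33469 windows of the same length, TATAAA in 3 of 6 and 12.9%, AGATAA in 1 of 6 (*Edn1*) and 10.3%, and CCAAT in 1 of 6 and 34%. GC content was 69.2% in both the *Ace* and *Ece1* windows and 61.2% in the *Ednra* window, beside a median of 51.2% over all windows. These matches describe letters and were not tested for use in these cells.

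Per length of transcript, in FPKM (fragments scaled for transcript length and library depth) as deposited, *Ece1* was the most abundant of the 9 genes with a mean of 51.3 ± 29.5 (SD, n = 82 libraries). *Ednra* followed at 22.4 ± 7.13, *Nr3c2* at 15.2 ± 3.92, *Ednrb* at 10.3 ± 5.14 and *Ace* at 7.72 ± 5.69 FPKM. *Edn1* had 3.06 ± 1.53, *Agt* 1.70 ± 0.512 and *Agtr1a* 0.648 ± 0.343 FPKM. *Ednra* and *Nr3c2*, and *Agt* and *Agtr1a*, differed by more than the larger SD of the pair, and all other neighbours in this order by less. The spread of *Ece1* and *Ace* came mostly from differences between groups: mean FPKM per group ran from 28.4 to 97.4 for *Ece1* and from 3.20 to 18.7 for *Ace*. *Agtr1a* had only 4 to 65 raw counts and *Agt* 20 to 95 in any library, so that their fold changes carry wide errors.

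**Figure D1:**
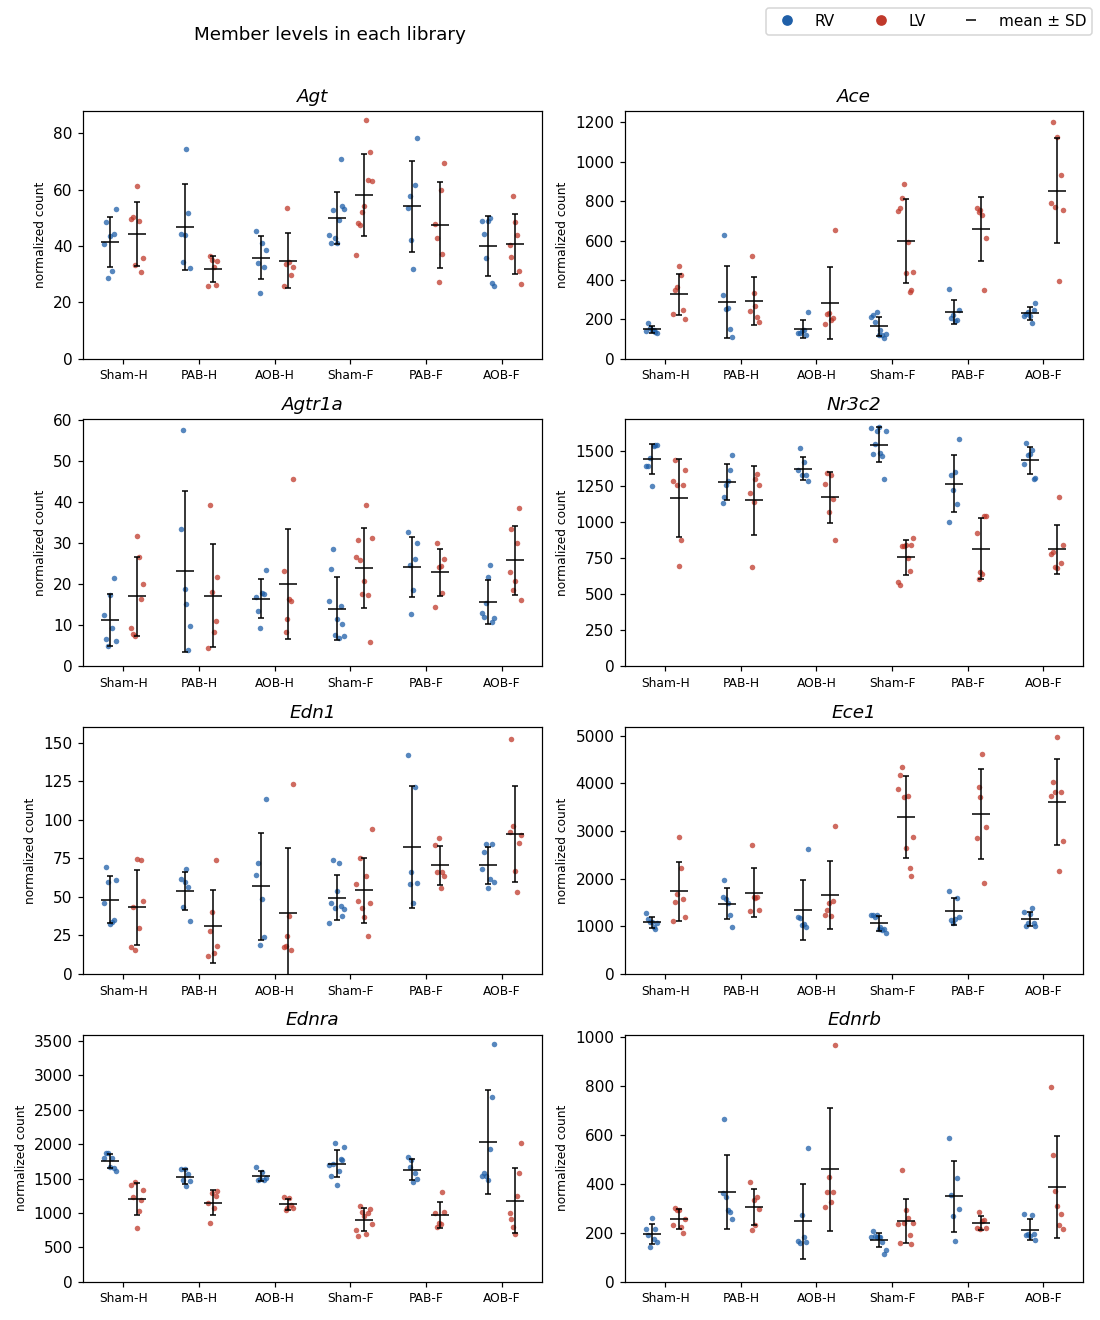
Normalized counts (linear axes from 0) of the 8 genes tested, by condition on the horizontal axis, with each library as a point, RV in blue, LV in red, and black marks for the group mean ± SD, whose lower end is cut off at 0 for *Edn1* in LV AOB-H. The F-stage LV libraries stand high for *Ace* and *Ece1* and low for *Nr3c2* and *Ednra*.

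The first question was how the ventricles of the same condition differ. All levels from here on are counts scaled by effective library size to a common 13279120 counts, and log2 fold changes come from edgeR's quasi-likelihood test, with a call where the Benjamini–Hochberg adjusted p over all genes tested was below 0.05. *Ednra*, the endothelin A receptor, was higher in RV than in LV in 41 of 41 animals. Its lowest, median and highest normalized counts in Sham-H were 1612, 1794 and 1868 in RV and 783, 1238 and 1445 in LV, and the ventricles did not overlap. In Sham-F they were 1401, 1706 and 2011 in RV and 664, 955 and 1107 in LV, again without overlap. The log2 fold change of RV over LV was 0.54 ± 0.15 (SE) in Sham-H (adjusted p = 0.00779) and 0.93 ± 0.13 in Sham-F (adjusted p = 2.97e-09), and *Ednra* was also higher in RV of PAB-F by 0.75 ± 0.16 (adjusted p = 5.79e-05) and of AOB-F by 0.78 ± 0.15 (adjusted p = 5.66e-06).

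In PAB-H and AOB-H, *Ednra* had log2 fold changes of 0.41 ± 0.16 and 0.45 ± 0.16 that missed the threshold (adjusted p = 0.342 and 0.0737), although RV and LV libraries did not overlap in either group. With the animal as a block, which compares both ventricles of the same heart, the values were 0.42 (adjusted p = 0.0243) in PAB-H and 0.45 (adjusted p = 0.00132) in AOB-H. The share of all genes called with that block was 1.51% in PAB-H, 13.7% in AOB-H and 32.5% in Sham-H. *Ednra* in Sham-H missed the threshold without replicate 4 (0.47, adjusted p = 0.0625) and without the libraries that stand apart (0.41, adjusted p = 0.108).

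*Nr3c2*, whose product binds aldosterone and corticosterone, was higher in RV in 38 of 41 animals. In Sham-F its normalized counts were 1305, 1548 and 1663 (lowest, median and highest) in RV and 565, 836 and 890 in LV, so that every RV library was above every LV library. The log2 fold change was 1.03 ± 0.11 in Sham-F (adjusted p = 9.15e-13), 0.82 ± 0.13 in AOB-F (adjusted p = 7.42e-08) and 0.63 ± 0.14 in PAB-F (adjusted p = 5.49e-05). At the H stage it was 0.30 ± 0.13 in Sham-H (adjusted p = 0.072), 0.15 ± 0.14 in PAB-H (adjusted p = 0.654) and 0.22 ± 0.14 in AOB-H (adjusted p = 0.376). The Sham-H difference passed with the animal as a block (0.34, adjusted p = 0.0245), and also without replicate 1 (0.36, adjusted p = 0.0492) or replicate 2 (0.37, adjusted p = 0.0437), and was 0.13 (adjusted p = 0.55) without the libraries that stand apart.

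The processing enzymes lay the other way. *Ace* was lower in RV in 39 of 41 animals and *Ece1* in 39 of 41. In Sham-F, *Ace* had normalized counts of 105, 145 and 237 in RV and 338, 593 and 887 in LV, and *Ece1* had 864, 991 and 1242 in RV and 2053, 3704 and 4343 in LV, both without overlap. *Ace* was lower in RV by a log2 fold change of -1.87 ± 0.24 in Sham-F (adjusted p = 1.01e-10), -1.48 ± 0.28 in PAB-F (adjusted p = 9.69e-06) and -1.89 ± 0.27 in AOB-F (adjusted p = 7.07e-09). *Ece1* was lower in RV by -1.63 ± 0.18, -1.35 ± 0.22 and -1.65 ± 0.20 in the same conditions (adjusted p = 1.06e-12, 5.35e-07 and 2.95e-10).

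At the H stage both enzymes were called in Sham-H. *Ace* had 132, 146 and 179 normalized counts in RV and 200, 351 and 473 in LV (log2 fold change -1.14 ± 0.27, adjusted p = 0.00192), without overlap. *Ece1* had 949, 1082 and 1283 in RV and 1104, 1567 and 2881 in LV (-0.68 ± 0.20, adjusted p = 0.0125), and 5 of 7 RV libraries lay below all LV libraries. The *Ece1* call was lost without replicate 4 (-0.51, adjusted p = 0.136), without replicate 5 (-0.56, adjusted p = 0.0919) and without the libraries that stand apart (-0.36, adjusted p = 0.235), whereas that of *Ace* was kept in each of these. In PAB-H the RV over LV values were -0.02 ± 0.28 for *Ace* and -0.20 ± 0.21 for *Ece1* (adjusted p = 0.976 and 0.69).

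**Figure D2:**
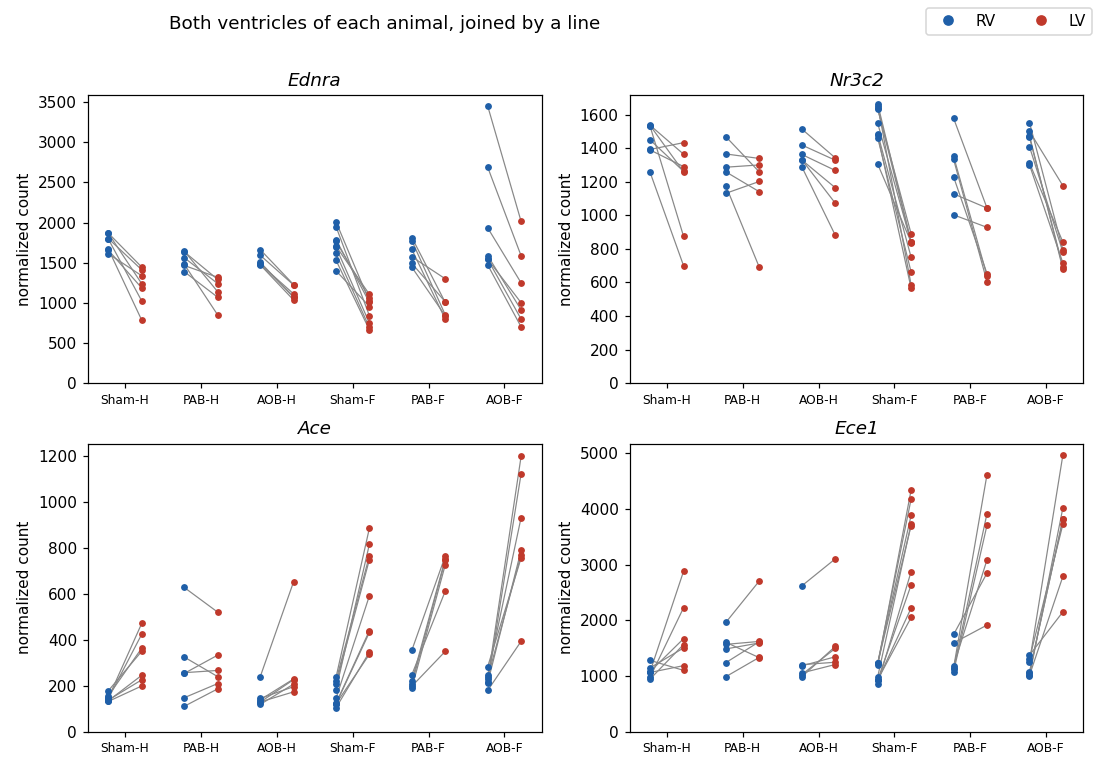
Normalized counts (linear axes from 0) of *Ednra*, *Nr3c2*, *Ace* and *Ece1* in both ventricles of each of 41 animals, by condition, with RV (blue) and LV (red) of an animal joined by a line. The *Ednra* lines fall from RV to LV in all 41 animals, and the *Ace* and *Ece1* lines rise from RV to LV in 39 of 41.

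*Ednrb*, the endothelin B receptor, was lower in RV in 30 of 41 animals, and its direction was not the same in every condition. It was lower in RV of AOB-F (-0.86 ± 0.25, adjusted p = 0.00189) and of Sham-F (-0.54 ± 0.22, adjusted p = 0.0257), and of AOB-H (-0.89 ± 0.27, adjusted p = 0.0246), but in PAB-F 5 of 6 animals had the higher value in RV (0.54 ± 0.27, adjusted p = 0.0722). The Sham-F call was lost without replicate 3 (-0.39, adjusted p = 0.117), replicate 5 (-0.49, adjusted p = 0.0647) or replicate 9 (-0.50, adjusted p = 0.053), and the PAB-F value passed without replicate 4 (0.70, adjusted p = 0.034) and was 0.31 (adjusted p = 0.352) without replicate 1. *Agtr1a*, the angiotensin receptor, was lower in RV of Sham-F, with 6.86, 11.5 and 28.5 normalized counts against 5.88, 25.8 and 39.2 in LV (-0.76 ± 0.35, adjusted p = 0.0418). The RV range lay within the LV range, and the call was lost in 6 of 9 runs that left out an animal (replicates 1, 4, 5, 6, 7 and 9), where the value ran from -0.79 to -0.55 and the adjusted p from 0.0512 to 0.168. In AOB-F *Agtr1a* was called with the AOB-F libraries fitted alone (-0.74, adjusted p = 0.0272), where the share of all genes called was not counted.

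In AOB-H, *Ace* was called lower in RV together with *Ednrb* (-0.90 ± 0.29, adjusted p = 0.038), with 119, 135 and 239 normalized counts in RV and 174, 217 and 653 in LV. The highest value of each ventricle belonged to the same animal, replicate 6. Its libraries also had the highest endothelial marker shares of their groups (0.343% in RV and 0.751% in LV). Without the libraries that stand apart, of which LV AOB-H replicate 6 is one, *Ace* was at -0.47 (adjusted p = 0.404), *Ednrb* at -0.54 (adjusted p = 0.316) and *Edn1* at 1.31 (adjusted p = 0.0318, higher in RV), and 3.88% of all genes were called. Leaving out whole animals, the *Ace* call was lost without replicate 2 (adjusted p = 0.0779), 3 (adjusted p = 0.0719), 5 (adjusted p = 0.0804) or 6 (-0.64, adjusted p = 0.251), and the *Ednrb* call without replicate 2 (adjusted p = 0.0748) or 5 (adjusted p = 0.078). With the AOB-H libraries fitted alone, both *Ace* (-0.92, adjusted p = 0.113) and *Ednrb* (-0.91, adjusted p = 0.172) missed the threshold, and *Ednra* was the member called (0.43, adjusted p = 0.0069). The share of all genes called in that fit was not counted. The ligand genes *Agt* and *Edn1* were called in no condition between the ventricles, and were higher in RV in 23 and 21 of 41 animals.

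Read against all genes, these counts are close to what any gene showed at the F stage. Of the 8 genes tested, 6 were called between ventricles in Sham-F, where 74.3% of all genes were called, 4 in PAB-F (61.1%) and 5 in AOB-F (67.1%). At the H stage 3 were called in Sham-H (21%), 2 in AOB-H (7.98%) and 0 in PAB-H (0.125%), where 3 had an unadjusted p below 0.05 and DESeq2 also called 0. Without the libraries that stand apart, 1 gene, *Ace*, was called in Sham-H, where 4.08% of all genes were. The median log2 fold change over the 8 genes was -0.38 in Sham-F and -0.25 in Sham-H, beside -0.07 and -0.02 over all genes tested.

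**Figure D3:**
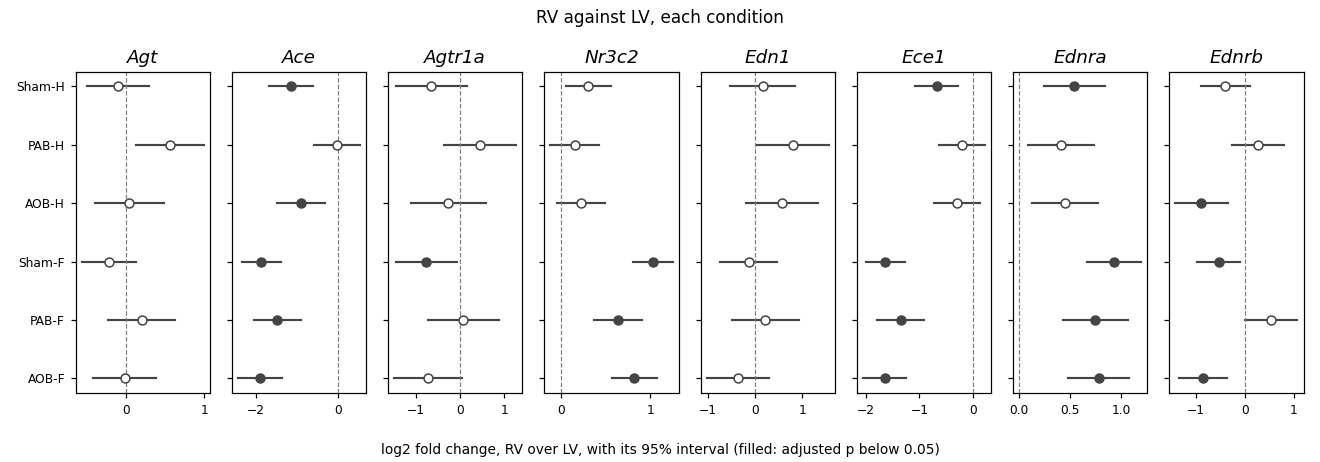
Log2 fold change of RV over LV (horizontal axis) with its 95% interval for each of 8 genes in the 6 conditions (vertical axis). Filled points were called at an adjusted p below 0.05. *Ednra* lies right of 0 in all 6 conditions, while *Ace* and *Ece1* lie left of 0 with the widest distance in Sham-F, PAB-F and AOB-F.

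Whether the ventricles differed more at the later age was tested directly in the sham groups. The RV over LV difference of *Nr3c2* was larger in Sham-F than in Sham-H by 0.72 ± 0.17 (adjusted p = 0.000894), and that of *Ece1* was more negative by -0.95 ± 0.27 (adjusted p = 0.00357). *Ace* (-0.72 ± 0.35, adjusted p = 0.0878) and *Ednra* (0.39 ± 0.20, adjusted p = 0.106) missed the threshold, and passed with the animal as a block (-0.75, adjusted p = 0.00213, and 0.38, adjusted p = 0.0113), and also without the libraries that stand apart (-0.95, adjusted p = 0.00842, and 0.54, adjusted p = 0.0148) and with the compared groups fitted alone (-0.72, adjusted p = 0.0446, and 0.40, adjusted p = 0.0398). Of all genes, 41.6% were called in this difference, 49.8% with the animal as a block and 55.6% without the libraries that stand apart. For the groups fitted alone this share was not counted.

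The sham groups were then compared with age within each ventricle. Between LV Sham-H and LV Sham-F, 4 of the 8 genes were called, beside 57.4% of all genes. *Ece1* rose by 0.92 ± 0.19 on the log2 scale (adjusted p = 4.36e-05) and *Ace* by 0.87 ± 0.25 (adjusted p = 0.00212), with 5 of 9 LV Sham-F libraries above all LV Sham-H libraries for each. *Nr3c2* fell by 0.63 ± 0.12 (adjusted p = 1.19e-05) and *Ednra* by 0.42 ± 0.14 (adjusted p = 0.0087), with 3 of 9 LV Sham-F libraries below all LV Sham-H libraries. *Agt* was at 0.39 ± 0.19 (adjusted p = 0.0702) and passed without Sham-H replicate 4 (0.49, adjusted p = 0.0281) or Sham-F replicate 1 (0.44, adjusted p = 0.0454). Without the libraries that stand apart, *Agt* (0.52, adjusted p = 0.0272) and *Agtr1a* (0.94, adjusted p = 0.0281) passed as well. In RV, 0 of 8 were called by edgeR and by DESeq2 and none had an unadjusted p below 0.05, beside 0.0502% of all genes called. Age and time since surgery cannot be told apart here.

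The endothelial markers moved with these ventricle and age differences. Their summed share had medians of 0.119% in RV and 0.222% in LV of Sham-H, and of 0.125% in RV and 0.442% in LV of Sham-F, where the ranges (0.0914 to 0.156% and 0.274 to 0.542%) did not overlap. Between the ventricles of Sham-F, 10 of 12 endothelial markers were called lower in RV and 1 higher, with a median log2 fold change of -1.56, beside 74.3% of all genes called. In Sham-H, 8 of 12 were lower, with a median of -0.89, beside 21%. The cardiomyocyte marker share had medians of 12.2% in RV and 8.70% in LV of Sham-F. Other lists were also lower in RV of Sham-F. Their medians in RV and LV were 0.0261 and 0.0689% for fibroblast, 0.124 and 0.190% for mural, and 0.00361 and 0.00841% for macrophage markers. Over all 82 libraries, log2 levels followed the log2 endothelial share with r = 0.95 for *Ece1*, 0.92 for *Ace*, -0.86 for *Nr3c2*, -0.78 for *Ednra* and 0.56 for *Ednrb*. After group means were removed r was 0.90, 0.81, -0.55, -0.41 and 0.67. With the log2 fibroblast share, r over all libraries was 0.76, 0.79, -0.69, -0.48 and 0.60 for these genes in the same order. With the first principal component of all genes tested, r was 0.96, 0.91, -0.95, -0.80 and 0.27. The link was thus not particular to the endothelial share. These points share libraries, animals and scaling, and the part of the marker shares in the differences was not tested.

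**Figure D4:**
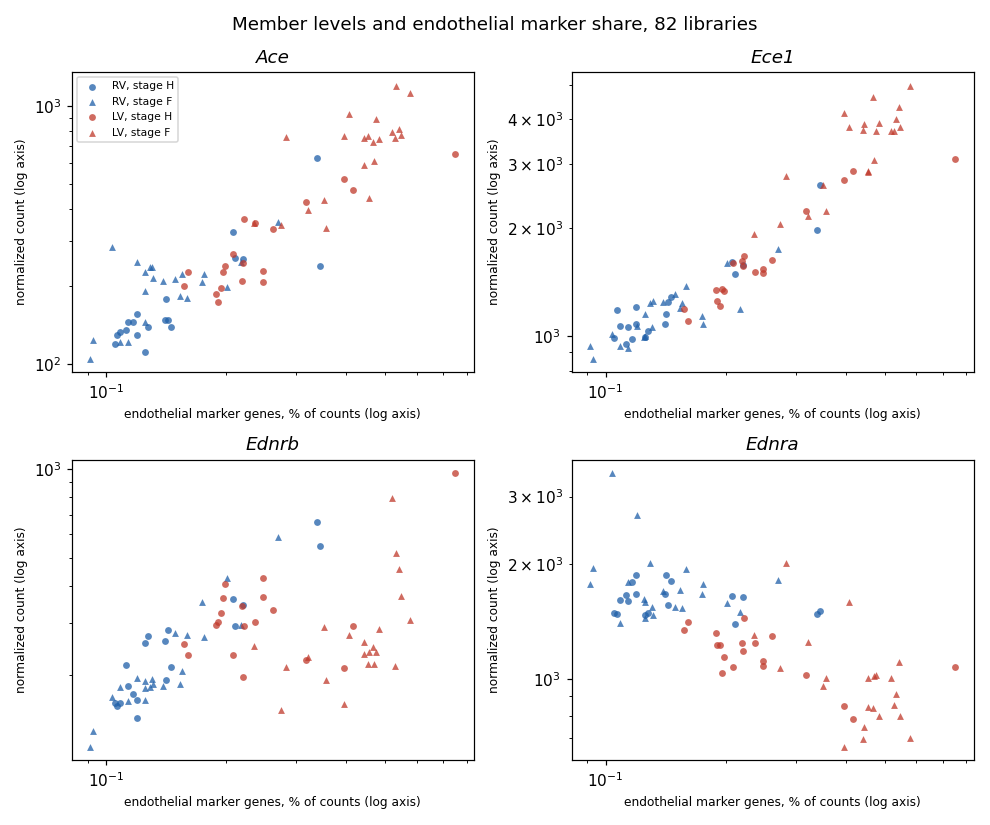
Normalized counts of *Ace*, *Ece1*, *Ednrb* and *Ednra* (vertical log axes) against the summed share of 12 endothelial marker genes in percent of counts (horizontal log axes) in 82 libraries, RV in blue, LV in red, H stage as circles and F stage as triangles. *Ace* and *Ece1* climb with the share and *Ednra* falls.

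The genes nearest to each member over the 82 libraries, by Pearson's r of log2 CPM (counts scaled to a common library size) are given as a description. *Ece1* was nearest to *Tle3* (r = 0.97), *Rab3d* (0.97) and the endothelial marker *Eng* (0.97), and *Ace* to *Vim*, *Fam129b* and *Lasp1* (0.96, 0.95 and 0.95). *Nr3c2* was nearest to *Tnrc6b*, *Akap6* and *Uqcrc2* (0.95 each), and *Ednra* to *Sphkap* (0.91), *Epha3* (0.90) and *Chrm2* (0.89), the last the muscarinic receptor of cardiomyocytes. *Ednrb* was nearest to *Heph* (0.88), *Tek* (0.87), which encodes the angiopoietin receptor of endothelium, and *Anxa3* (0.86). *Edn1* was nearest to *Procr* (0.77), *Icam1* (0.71) and *Fmod* (0.70), *Agtr1a* to *Tgfb3* (0.68), *Slc43a3* (0.66) and *Acer2* (0.66), and *Agt* to *Nfasc* (0.55), *Pfas* (0.51) and *Ptpru* (0.50). Among the members, *Ace* and *Ece1* had r = 0.93 (0.82 after group means were removed), and *Nr3c2* and *Ece1* had -0.91 (-0.67).

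The second question was which of these genes responded to pressure load in the ventricle that bore it. *Ednrb* was called in the loaded RV at both stages. In RV PAB-H its normalized counts were 257, 320 and 663 (lowest, median and highest) against 144, 193 and 262 in RV Sham-H, and 5 of 6 banded libraries lay above all sham libraries. It rose by 0.92 ± 0.26 on the log2 scale (adjusted p = 0.0278, n = 6 and 7 libraries). In RV PAB-F it had 165, 326 and 587 against 115, 182 and 207 in RV Sham-F, with 5 of 6 again above every sham library, and rose by 1.03 ± 0.24 (adjusted p = 0.00277, n = 6 and 9). In LV of the same PAB hearts the values were 0.24 ± 0.26 at H and -0.05 ± 0.25 at F (adjusted p = 0.991 and 1).

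The difference between the *Ednrb* responses of RV and LV to PAB was 0.68 ± 0.37 at H (adjusted p = 0.579) and 1.08 ± 0.35 at F (adjusted p = 0.174), so the responses of the ventricles are not shown to differ by the main test. With the animal as a block the F-stage difference was 0.94 (adjusted p = 0.0436), where 2.92% of all genes were called. The RV PAB-H call was lost without PAB-H replicate 2, the highest library (0.66, adjusted p = 0.332), and without Sham-H replicate 3 (adjusted p = 0.0631), 5 (adjusted p = 0.0565) or 7 (adjusted p = 0.0636). The RV PAB-F call was lost without PAB-F replicate 1, also the highest library (0.82, adjusted p = 0.0544).

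*Ace* was called in RV PAB-H, with 111, 256 and 629 normalized counts against 132, 146 and 179 in RV Sham-H (0.96 ± 0.27, adjusted p = 0.0307). The 4 male PAB-H libraries (254 to 629) lay above all sham libraries, 1 female library (149) was within the sham range and the other (111) below it. Whether the response differed between the sexes was not tested. With sex as a covariate *Ace* missed the threshold (0.81, adjusted p = 0.064), and so it did without PAB-H replicate 2 (0.57, adjusted p = 0.4), PAB-H replicate 1 (adjusted p = 0.064), or Sham-H replicate 5 (adjusted p = 0.0538), 6 (adjusted p = 0.059) or 7 (adjusted p = 0.0591). At the F stage *Ace* had 191, 215 and 356 in RV PAB-F against 105, 145 and 237 in RV Sham-F (0.53 ± 0.26, adjusted p = 0.165).

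Other members had values that did not pass in the PAB-loaded RV in the fit of all libraries. In PAB-F these were *Edn1* (0.72 ± 0.33, adjusted p = 0.141), *Agtr1a* (0.77 ± 0.38, adjusted p = 0.174), *Nr3c2* (-0.28 ± 0.12, adjusted p = 0.131, and 0.0347 without the libraries that stand apart), *Ece1* (0.31 ± 0.20), *Agt* (0.12 ± 0.20) and *Ednra* (-0.08 ± 0.15). The libraries that stand apart are all of LV, so the RV libraries compared were the same in both fits. In PAB-H *Agtr1a* was at 1.07 ± 0.41 (adjusted p = 0.107) and passed without PAB-H replicate 5 (1.29, adjusted p = 0.0406), but was 0.57 (adjusted p = 0.654) without PAB-H replicate 2, and *Ece1* was at 0.45 ± 0.21 (adjusted p = 0.197). *Ednra* was at -0.20 ± 0.16 in PAB-H, with a 95% interval of -0.51 to 0.11. With the compared groups fitted alone, *Edn1* (0.73, adjusted p = 0.042), *Nr3c2* (-0.27, adjusted p = 0.028) and *Ace* (0.54, adjusted p = 0.0439) passed in PAB-F, and *Ednra* (-0.20, adjusted p = 0.035) and *Ece1* (0.45, adjusted p = 0.0301) in PAB-H. The share of all genes called in those fits was not counted. In the fit of all libraries, 2 of the 8 genes were called in RV PAB-H, beside 4.5% of all genes, and 1 in RV PAB-F, beside 11.1%. The median log2 fold change over the 8 was 0.31 and 0.42, beside 0.00 and 0.02 over all genes tested.

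Fibroblast and endothelial markers moved with the *Ednrb* and *Ace* values. Of 9 fibroblast markers tested, 9 were called higher in RV PAB-H and 5 in RV PAB-F, with medians of 1.37 and 1.23, and of 12 endothelial markers 3 and 2 were called higher, with medians of 0.61 and 0.57, beside 4.5 and 11.1% of all genes called. The fibroblast share was 0.0374 to 0.314% in RV PAB-H and 0.025 to 0.048% in RV Sham-H, and the endothelial share 0.125 to 0.338% and 0.109 to 0.146%. RV PAB-H replicate 2 had the highest fibroblast (0.314%) and endothelial (0.338%) shares of its group. RV PAB-F replicate 1 likewise had the highest fibroblast (0.206%) and endothelial (0.271%) shares of its group. The mural share (0.140 to 0.247% in RV PAB-H and 0.110 to 0.135% in RV Sham-H) did not overlap. Nor did the share of the atrial list (0.0149 to 0.0413% and 0.0019 to 0.00469%), which holds *Nppa*. *Nppa* had a median of 2374 raw counts over all libraries, beside 60 for *Myl7*, the next highest of that list. It is among the atrial markers called higher at both stages, so this share mostly follows *Nppa*. In RV PAB-H mural markers were higher in 2 of 11, endocardial markers in 1 of 5, atrial markers in 2 of 4 tested, Schwann cell and neuron markers in 1 of 5, and macrophage markers in 0 of 9 with a median of 0.99. In RV PAB-F macrophage markers were higher in 4 of 9, mural markers in 2 of 11, endocardial markers in 1 of 5, atrial markers in 2 of 4 tested, Schwann cell and neuron markers in 1 of 5, and the 2 red blood cell markers tested had a median of 0.40. The part of these shares in the differences was not tested.

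**Figure D5:**
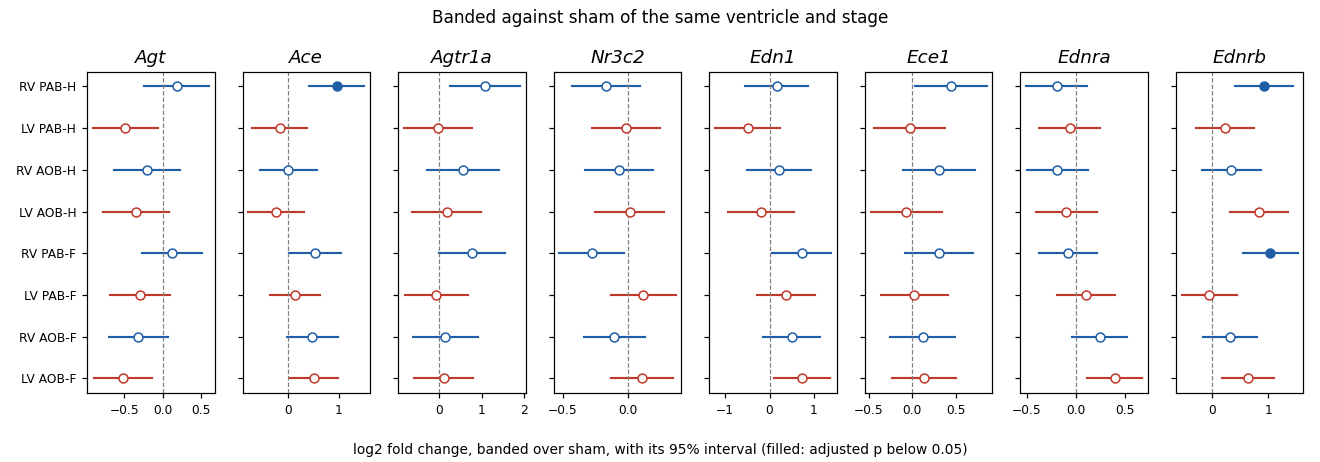
Log2 fold change of banded over sham libraries of the same ventricle and stage (horizontal axis) with its 95% interval for each of 8 genes, RV in blue and LV in red. Filled points were called at an adjusted p below 0.05, which holds for *Ednrb* in RV PAB-H and RV PAB-F and for *Ace* in RV PAB-H.

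In the LV loaded by AOB, edgeR called 0 of the 8 genes at the F stage, while 12.9% of all genes were called, 5 members had an unadjusted p below 0.05 and DESeq2 called 2. *Ednra* (0.39 ± 0.14, adjusted p = 0.051), *Ednrb* (0.64 ± 0.23, adjusted p = 0.0514) and *Agt* (-0.52 ± 0.19, adjusted p = 0.0556) narrowly missed the threshold. *Ednra* had 700, 1001 and 2015 normalized counts in LV AOB-F and 664, 955 and 1107 in LV Sham-F. *Ednrb* had 214, 308 and 795 against 153, 239 and 458, and *Agt* 26.4, 40.5 and 57.7 against 36.9, 54.3 and 84.6, so all ranges overlapped. *Edn1* was at 0.74 ± 0.31 (adjusted p = 0.105) and *Ace* at 0.52 ± 0.24 (adjusted p = 0.136). Marker shares differed in median here as well, with ranges that overlapped. Medians in LV AOB-F and LV Sham-F were 0.519 and 0.442% for endothelial, 0.109 and 0.0689% for fibroblast, and 0.0195 and 0.00841% for macrophage markers. The cardiomyocyte marker share had medians of 7.02 and 8.70%. The part of these shares in the member values was not tested.

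Other tools and sets of libraries moved *Ednra*, *Ednrb*, *Agt* and *Edn1* across the threshold. DESeq2 called *Ednra* (0.40, adjusted p = 0.0387) and *Ednrb* (0.65, adjusted p = 0.0393), and the share of all genes that it called was not counted. Without the libraries that stand apart 4 were called, *Ednra* (0.39, adjusted p = 0.0232), *Ednrb* (0.65, adjusted p = 0.0238), *Agt* (-0.51, adjusted p = 0.0409) and *Edn1* (0.74, adjusted p = 0.0484), beside 22.2% of all genes. None of those left out is in LV AOB-F or LV Sham-F. The libraries compared were thus the same, and only the fit shared with other groups changed. Leaving out 1 animal, *Ednra* passed without Sham-F replicate 3, 4 or 8 or AOB-F replicate 2, 3 or 4 (0.42 to 0.49), *Ednrb* without Sham-F replicate 3 or AOB-F replicate 4, 5 or 7 (0.69 to 0.81), and *Agt* without Sham-F replicate 1 or 3 or AOB-F replicate 3 or 4 (-0.62 to -0.55). Other runs moved them away from it: *Ednra* was 0.21 (adjusted p = 0.301) without AOB-F replicate 7 and *Ednrb* 0.37 (adjusted p = 0.334) without AOB-F replicate 1. Without both AOB-F animals low in *Myh6* (replicates 6 and 7), *Ednra* was 0.06 (adjusted p = 0.824) and *Ednrb* 0.85 (adjusted p = 0.0411).

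Within AOB-F, *Ednra* was split by sex in both ventricles. The 3 females had 1249, 1586 and 2015 normalized counts in LV and 1934, 2689 and 3451 in RV, above all 4 males, which had 700 to 1001 in LV and 1472 to 1587 in RV. The 2 highest females, replicates 6 and 7, were also the animals in which *Myh6*, the adult fast myosin heavy chain of rat heart, took the smallest share of counts (0.464 and 0.641% in LV), and they had the lowest *Agt* of the group in both ventricles. In LV Sham-F, females (693 to 1063) and males (664 to 1107) overlapped. Whether the *Ednra* response to AOB differs between the sexes was not tested.

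At the compensated AOB stage, *Ednrb* in LV had 304, 367 and 966 normalized counts against 198, 255 and 303 in LV Sham-H. Every banded library lay above every sham library, yet the value did not pass (0.83 ± 0.26, adjusted p = 0.103), and 0.0167% of all genes were called. It was 0.49 without AOB-H replicate 6, the highest library (adjusted p = 0.341), and 0.49 without the libraries that stand apart (adjusted p = 1). LV AOB-H replicate 6 had the fewest counts of all libraries (6675287) and the highest endothelial marker share (0.751%, beside a group median of 0.222%). The part of these in the *Ednrb* value was not tested. The other 7 tested members had adjusted p values from 0.347 to 0.977 in LV AOB-H, and 1 of the 8 had an unadjusted p below 0.05. In the ventricle that did not bear the load, 0 of 8 were called in LV PAB-H (0% of all genes called, 1 of 8 with an unadjusted p below 0.05), LV PAB-F (0% and 0), RV AOB-H (0% and 0) and RV AOB-F (0.0669% and 0), by edgeR and by DESeq2. The values nearest to a response in RV AOB-F were *Ace* (0.49 ± 0.25) and *Edn1* (0.50 ± 0.32), both at an adjusted p of 1.

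No difference between 2 responses was called for any of the 8 by edgeR or DESeq2 in the fit of all libraries. The share of all genes called, and the number of members with an unadjusted p below 0.05, was 0% and 2 for PAB-H, 0.351% and 2 for PAB-F, 0% and 0 for AOB-H and 0% and 0 for AOB-F (each RV minus LV). It was 0% and 0 for the RV response to PAB between F and H, 0% and 2 for the LV response to AOB between F and H, and 3.15% and 3 for the response of RV to PAB-F minus that of LV to AOB-F. In that last contrast these were *Agt* (0.64 ± 0.27, adjusted p = 0.153), *Ednra* (-0.47 ± 0.20, adjusted p = 0.158) and *Nr3c2* (-0.38 ± 0.17, adjusted p = 0.175). Without the libraries that stand apart, none of which is in the groups compared, *Nr3c2* passed (-0.39, adjusted p = 0.0426). *Ednra* was -0.29 (adjusted p = 0.365) without AOB-F replicate 7 and -0.15 (adjusted p = 0.644) without both animals low in *Myh6*. For *Ednrb* the difference between the RV response to PAB-F and the LV response to AOB-F was 0.39 ± 0.34, with a 95% interval of -0.29 to 1.06.

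Males and females were compared in a fit with a male effect for each ventricle and stage, chosen after the values were seen. In LV at the F stage 4 of 8 members were called, beside 35.3% of all genes. *Ace* was higher in males by 0.70 ± 0.19 (adjusted p = 0.00285), with 750, 791 and 887 normalized counts in 4 male and 338, 433 and 593 in 5 female LV Sham-F libraries, which did not overlap. *Ece1* was higher by 0.56 ± 0.15 (adjusted p = 0.00255), with 3704 to 4343 in male and 2053 to 3733 in female LV Sham-F libraries. *Nr3c2* was lower in males by -0.32 ± 0.10 (adjusted p = 0.00742) and *Ednra* by -0.42 ± 0.11 (adjusted p = 0.00189). The mean *Ednra* count of males and females was 885 and 912 in LV Sham-F, 873 and 1157 in LV PAB-F, and 853 and 1617 in LV AOB-F. That of *Nr3c2* was 706 and 797 in Sham-F, 706 and 1044 in PAB-F, and 738 and 912 in AOB-F. Of the 12 endothelial markers, 9 were higher in males there, with a median log2 fold change of 0.55, and the part of that in the differences was not tested. *Ednrb* (0.46 ± 0.20, adjusted p = 0.0664) passed without the libraries that stand apart (0.52, adjusted p = 0.0284).

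In LV at the H stage 1 member was called, *Edn1*, which was lower in males (-1.17 ± 0.30, adjusted p = 0.0497; 0.468% of all genes called). It had 15.6 to 43.6 normalized counts in 3 male and 29.6 to 74.4 in 4 female LV Sham-H libraries. The call was lost without the libraries that stand apart (-0.98, adjusted p = 0.109). The male effect in LV differed between F and H for *Edn1* (1.39 ± 0.39, adjusted p = 0.0121), *Ece1* (0.81 ± 0.23, adjusted p = 0.0111), *Ednra* (-0.49 ± 0.16, adjusted p = 0.0301) and *Nr3c2* (-0.44 ± 0.14, adjusted p = 0.0255), beside 18.1% of all genes. Without the libraries that stand apart, *Ece1* (0.50, adjusted p = 0.0816), *Ednra* (-0.39, adjusted p = 0.122) and *Nr3c2* (-0.32, adjusted p = 0.0839) no longer passed, and *Ace* went from 0.71 (adjusted p = 0.0752) to 0.33 (adjusted p = 0.42). In RV edgeR called 0 of 8 at H (0.125% of all genes, 0 members with an unadjusted p below 0.05), 0 at F (0.929% and 1) and 0 for the difference of F and H (0% and 0). DESeq2 and fits without 1 animal were not run on the sexes.

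Other genes of the renin–angiotensin–aldosterone system were read from a list of 36, of which 34 were in the table and 21 had enough counts to be tested. *Cyp11b2*, which encodes aldosterone synthase, had 0 counts in 79 of 82 libraries and at most 2, and *Agtr2*, the type 2 angiotensin receptor, had 0 in 80. *Hsd11b2*, the enzyme that shields the mineralocorticoid receptor from glucocorticoid, had a median of 13 raw counts, and *Hsd11b1*, which regenerates active glucocorticoid, one of 130.5.

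*Hsd11b1* was the gene of that list called in the PAB-loaded RV at both stages. It rose from 78.1 ± 30.2 (SD, n = 7) to 200 ± 78.5 (n = 6) normalized counts in PAB-H (1.35 ± 0.32, adjusted p = 0.00992) and from 88.3 ± 33.8 (n = 9) to 266 ± 154 (n = 6) in PAB-F (1.58 ± 0.29, adjusted p = 0.000118). In RV PAB-H it was the 1 of 21 called (4.5% of all genes), and in RV PAB-F (11.1%) *Atp6ap2*, which encodes an accessory protein of the vacuolar proton pump, was the other (0.52 ± 0.17, adjusted p = 0.0325). Fibroblast markers were also higher in RV PAB-H and RV PAB-F, and their part in the *Hsd11b1* values was not tested. In LV AOB-F (12.9%) 5 of 21 were higher and 1 lower, with *Bdkrb2*, the bradykinin B2 receptor, at 1.17 ± 0.32 (adjusted p = 0.00934), *Anpep* at 0.96 ± 0.32 (adjusted p = 0.0331) and *Cyp21a1* at -1.51 ± 0.46 (adjusted p = 0.02). The median over the list was 0.21, 0.14 and 0.17 in these comparisons, beside 0.00, 0.02 and 0.04 over all genes tested.

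Between ventricles of Sham-F, 6 of the 21 were higher and 7 lower in RV, beside 74.3% of all genes called. The angiotensin-degrading aminopeptidases split: *Rnpep* (-2.40 ± 0.20, adjusted p = 3.81e-16) and *Anpep* (-1.81 ± 0.32, adjusted p = 8.76e-07) were lower in RV and *Lnpep*, whose product binds angiotensin IV, was higher (1.80 ± 0.20, adjusted p = 1.25e-12). In RV of Sham-H 5 were lower (21% of all genes called) and in AOB-H 2 (7.98%), while in PAB-F 7 were higher and 5 lower (61.1%) and in AOB-F 3 and 8 (67.1%). *Rnpep* had the same direction in Sham-H (-1.21 ± 0.22, adjusted p = 8.77e-05) and AOB-H (-1.14 ± 0.24, adjusted p = 0.000692).

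The endothelin list added 7 genes, of which 5 were tested. *Furin*, whose product makes the first cut in the endothelin precursor, was lower in RV of Sham-F (-0.72 ± 0.10, adjusted p = 5.95e-10), PAB-F (-0.85 ± 0.12, adjusted p = 5.34e-08) and AOB-F (-0.63 ± 0.11, adjusted p = 8e-07), and rose with age in LV (0.30 ± 0.10, adjusted p = 0.0114). Of all genes, 74.3% were called between ventricles in Sham-F, 61.1% in PAB-F and 67.1% in AOB-F, and 57.4% with age in LV. *Ece2*, a second converting enzyme with few counts, was lower in RV of Sham-F, with 8.25 ± 6.76 against 20.2 ± 7.72 normalized counts (SD, n = 9 each; -1.28 ± 0.39, adjusted p = 0.00235). *Edn2*, the third endothelin precursor, had a median of 6 and at most 20 raw counts.

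A list of 36 genes of receptor signalling had 35 in the table, all tested (Gq proteins, phospholipases, protein kinase C, regulators of G protein signalling and receptor kinases among them), of which 10 were higher and 18 lower in RV of Sham-F, beside 74.3% of all genes called. *Rgs2*, whose product inhibits Gq, was higher in RV (561 ± 148 against 82.6 ± 27 normalized counts; 2.77 ± 0.24, adjusted p = 1.37e-15), and *Rgs3* lower (-2.20 ± 0.20, adjusted p = 1.67e-15). In Sham-H *Rgs2* was higher by 1.20 ± 0.26 (adjusted p = 0.000877). In RV PAB-H (4.5%) 2 were higher, *Rgs4* (0.92 ± 0.27, adjusted p = 0.0315) and *Itpr3* (0.75 ± 0.24, adjusted p = 0.049). In RV PAB-F (11.1%) 4 were higher and 1 lower: *Prkcd*, a protein kinase C isoform, rose by 0.81 ± 0.16 (adjusted p = 0.000194), *Rgs3* by 0.66 ± 0.21 (adjusted p = 0.0292), and *Prkd1*, protein kinase D, fell by 0.62 ± 0.13 (adjusted p = 0.00107). In LV AOB-F (12.9%) 3 were higher and 1 lower, with *Rgs2* at 0.95 ± 0.25 (adjusted p = 0.0075), *Jak2* at 0.90 ± 0.19 (adjusted p = 0.000928) and *Grk5*, a receptor kinase, at 0.89 ± 0.21 (adjusted p = 0.00312). The *Rgs2* responses of RV to PAB-F and of LV to AOB-F differed by -1.67 ± 0.36 (adjusted p = 0.0079).

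A list of 20 genes known to be raised by angiotensin II, endothelin or mineralocorticoid receptor signalling in heart or other tissues was read as well. It held 4 called higher and 1 lower in RV PAB-H, 6 and 2 in RV PAB-F, and 7 higher in LV AOB-F, beside 4.5, 11.1 and 12.9% of all genes. In RV PAB-H *Nppa* (3.28 ± 0.60, adjusted p = 0.000846), *Acta1* (2.01 ± 0.39, adjusted p = 0.00184) and *Nppb* (1.21 ± 0.24, adjusted p = 0.00238) rose. In RV PAB-F, *Nppa* and *Nppb*, the natriuretic peptide genes, rose by 6.17 ± 0.60 and 2.45 ± 0.23 (adjusted p = 3.7e-12 and 6.26e-13) and *Acta1*, skeletal actin, by 2.52 ± 0.36 (adjusted p = 5.63e-07). *Nppa* had 23646.2 ± 38656.5 normalized counts in RV PAB-F (SD, n = 6) and 328 ± 175 in RV Sham-F (n = 9). In LV AOB-F the largest were *Spp1* (4.12 ± 0.92, adjusted p = 0.0019), *Lcn2*, a target of the mineralocorticoid receptor (2.52 ± 0.51, adjusted p = 0.000859), and *Nppa* (1.95 ± 0.51, adjusted p = 0.00661). *Spp1* had 884 ± 1856 against 50.1 ± 77.7 normalized counts, and *Lcn2* 1049 ± 1418 against 182 ± 62 (SD, n = 7 and 9). In LV AOB-F both SDs exceed their means, so the libraries differ widely. The runs that left out animals were read for the members only. *Lcn2* was 1 of 2 called in RV AOB-F (0.0669%) as well, from 43.9 ± 12.1 to 439 ± 711 normalized counts (3.31 ± 0.56, adjusted p = 0.000494), beside *Nppa* (2.82 ± 0.53, adjusted p = 0.00246). The natriuretic peptides and *Acta1* are general marks of load, and nothing here ties any gene of this list to one ligand.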

How the data were processed

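RNA of isolated ventricular cardiomyocytes was measured as 82 rRNA-depleted total RNA libraries from 41 rats, 1 per ventricle. Per the labels and the study's methods, the authors trimmed reads with Trim Galore, aligned them with STAR to Rnor6.0, counted reads per gene with featureCounts and deposited raw counts per gene. They also deposited counts normalized by DESeq2 1.28.1, a signal scaled per library, and FPKM values. No deposited fold change was used. Ages follow the labels, and those in the study's text differ from them.

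From the raw counts, genes with low counts were removed with filterByExpr, libraries were scaled with TMM, and 1 quasi-likelihood fit with 12 group means was made in edgeR 4.0.16 under R 4.3.3. A call was a Benjamini–Hochberg adjusted p below 0.05 over all 11954 genes tested. DESeq2 1.42.0, other scalings, no filter, sex as a covariate, the compared groups alone, blocks, leaving out each animal and stricter criteria like those of the study (mean normalized count of at least 50, log2 fold change of at least 1 in size, unadjusted p below 0.01) were alternatives. The scripts were tested on simulated data. The male and female comparison and the runs without libraries that stand apart or animals low in *Myh6* were chosen after the values were seen.

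Both ventricles of an animal share an animal number in the labels. The departures of such pairs from their group means had a median correlation of 0.186 to 0.297 by condition, against -0.0686 to -0.0142 for ventricles of other animals, with the lowest pair at -0.141. No 2 libraries were alike within sampling noise. The libraries of a group come from separate animals, so p-values of comparisons within a ventricle measure the spread between animals. The main tests of RV against LV, and of RV minus LV responses, compare libraries of the same animals without using that pairing. The block by animal uses it.

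The 9 genes and all lists (the pathway lists and the cell type markers) were chosen with earlier results of these data known. All 9 genes were named. From each pathway list, the genes named with a fold change were taken from the up to 3 called with the largest absolute log2 fold change per comparison, all of them for banded against sham and a part of them for the other comparisons, and for each member the 3 genes with the highest Pearson's r of log2 CPM (prior count 2) over 82 libraries. *Cyp11b2*, *Agtr2*, *Hsd11b2*, *Edn2* and *Myh6* were named beyond this rule, after their values were seen.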

Additional observations from a re-analysis of the deposited data

Results flagged for a closer look

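A single library lay far from the rest of its group by Dixon's test in 18 of 97 gene and group pairs. The test is set to flag about 1 in 20 where values are independent and normally distributed. Counts were not checked for that, and pairs share animals, so no excess is read from it. Of the 18 flagged, 7 belonged to AOB-H replicate 6: *Ace* (238.7 normalized counts in RV and 653 in LV), *Ednrb* (548 and 966), *Ece1* (2622 and 3106) and *Edn1* in LV (123). PAB-H replicate 2 had *Ednrb* at 663 in RV, and in LV *Nr3c2* at 689 and *Ece1* at 2711. The others were *Ace* in RV PAB-F replicate 1 (356) and LV PAB-F replicate 5 (350.4), *Nr3c2* in LV AOB-F replicate 5 (1177), *Edn1* in LV AOB-F replicate 2 (152), *Ednrb* in LV Sham-F replicate 3 (458), *Agt* in LV AOB-H replicate 3 (53.4) and RV Sham-F replicate 7 (70.7), and *Edn3* in LV AOB-H replicate 5 (2.11), the only library of its group with a count.

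Effects that differed between groups by a test of the difference were the RV over LV log2 fold change in Sham-F minus Sham-H for *Nr3c2* (0.72) and *Ece1* (-0.95), and the male over female log2 fold change in LV at F minus H for *Nr3c2* (-0.44), *Edn1* (1.39), *Ednra* (-0.49) and *Ece1* (0.81).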

How the results depend on the processing

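Over 192 log2 fold changes of the tested members, the alternatives left the call as it was in 4102 cases, lost it in 54 and gained it in 52, and turned the direction of 0 called values. The 4102 include values called neither in the main fit nor in the alternative, so they do not measure how well calls were kept. The number of members called moved by over 1.5 times as follows, and the cause was not tested. The share of all genes called was counted in the full fit, with the block by animal and without the libraries that stand apart. Under the other alternatives it was not counted, so a member count there cannot be set against it. With the compared groups alone it was 4 in RV PAB-H (2 in the full fit), 4 in RV PAB-F (1), 4 in Sham-F minus Sham-H of RV against LV (2) and 1 in RV against LV of AOB-H (2), which was *Ednra* in place of *Ace* and *Ednrb*. With the replicate block by animal it was 4 in Sham-F minus Sham-H (2), 1 in RV against LV of PAB-H (0) and 1 in the PAB-F response of RV minus LV (0). Without the 5 libraries that stand apart it was 4 in LV AOB-F (0), 2 in RV PAB-F (1), 1 in RV against LV of Sham-H (3) and of AOB-H (2), 4 in Sham-F minus Sham-H (2), 1 in RV PAB-F minus LV AOB-F (0), 0 in male against female LV at H (1) and 1 in its F minus H (4). LV AOB-F (0) also had 2 with DESeq2, 2 with its size factors, 1 with sex as a covariate and 1 without both animals low in *Myh6*, and RV PAB-H (2) had 1 with sex. Under the study's criteria the counts were 0 in LV age (4), RV PAB-H (2) and RV against LV of AOB-H (2), 2 in RV against LV of AOB-F (5) and PAB-F (4), 3 in Sham-F (6) and 1 in Sham-H (3). Leaving out 1 animal gave 0 to 3 in LV AOB-F, 0 to 1 in RV PAB-F, 0 to 3 in RV PAB-H, and in RV against LV 0 to 2 in AOB-H and 1 to 4 in Sham-H. Between banded and sham or H and F animals, labels share only a number: the lowest correlation of same-numbered deviations was -0.446, and a block on it changed no member's call. Depth limits *Agt*, *Agtr1a*, *Edn1* and *Edn3*, which have the fewest counts.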
